A study of Mus musculus with 15 samples.

Results

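A set of 40 genes of heart and striated muscle was followed through the lungs of mouse embryos. The 40 were given as a list of symbols, all of which were found among the 23420 genes counted. The list was drawn up with their higher counts at E14.5 than at E12.5 already known. For that contrast their values are therefore a description and were not tested. The 15 RNA sequencing libraries came from whole lungs of CD1 mouse embryos, an outbred strain, all of wildtype genotype and with no transgene or drug. Fresh lungs were taken on 3 successive days of gestation, named E12.5, E13.5 and E14.5, and lungs explanted at E12.5 were kept in culture for 48 h at low or at high transmural pressure, that of the airway lumen relative to its surroundings. Each of the 5 groups had 3 libraries. Each low pressure and each E12.5 library pooled 6 lungs and each library of the other groups pooled 3, so the size of the pools cannot be told apart from pressure, nor from the step after E12.5. The labels do not say whether pools came from separate litters or cultures, so p-values measure only the spread between pools, which may be technical.

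Heart and skeletal muscle contract through the sarcomere, in which thick filaments of myosin pull on thin filaments of actin, titin links both to the Z-disc, and troponin switches the filament on when calcium is released. The atria and ventricles of the heart use different myosin light chains and, in the mouse, different proportions of 2 myosin heavy chains. In mice, cardiac muscle also extends from the left atrium along the pulmonary veins into the lung, where it expresses atrial genes. RNA of a whole lung does not show in which vessel or cell a gene is expressed, and fewer cells of a type cannot be told apart from less RNA per cell.

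Levels are given as CPM, the CPM scale of edgeR, which divides counts by the library size after TMM scaling. The total count was 18837343 to 21955244 per fresh library, 31843739 to 38288861 per low pressure library and 40167255 to 44341263 per high pressure library. The precision of genes with few counts was set by these depths. Low pressure replicate 3 stood apart: it held counts for 14637 genes, against 16465 to 16729 in the other 14 libraries. In it 22 of the 40 muscle genes had no count, against 0 to 10 elsewhere.

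The muscle genes were scarce until E13.5 and abundant at E14.5. Their summed level was 145, 110 and 87.1 CPM in the 3 E12.5 libraries, a mean of 114 ± 29.0 (SD, n = 3). It was 288, 119 and 186 CPM at E13.5, a mean of 198 ± 85.2, and 1530, 4219 and 1067 CPM at E14.5, a mean of 2272 ± 1702. Every E14.5 library thus lay above all 6 earlier ones, and the E14.5 libraries differed among themselves. E14.5 replicate 2 carried the most, with 0.417% of its counts in these genes, against 0.156% and 0.105% in replicates 1 and 3. Without replicate 2 the E14.5 mean was 1298 CPM. In cultured lungs, explanted at E12.5 and held for 48 h, the sum was 73.0, 138 and 117 CPM at low pressure and 115, 155 and 127 CPM at high, with means of 109 ± 33.3 and 132 ± 20.4. These levels overlapped those of E12.5 and lay below those of E14.5.

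**Figure D1:**
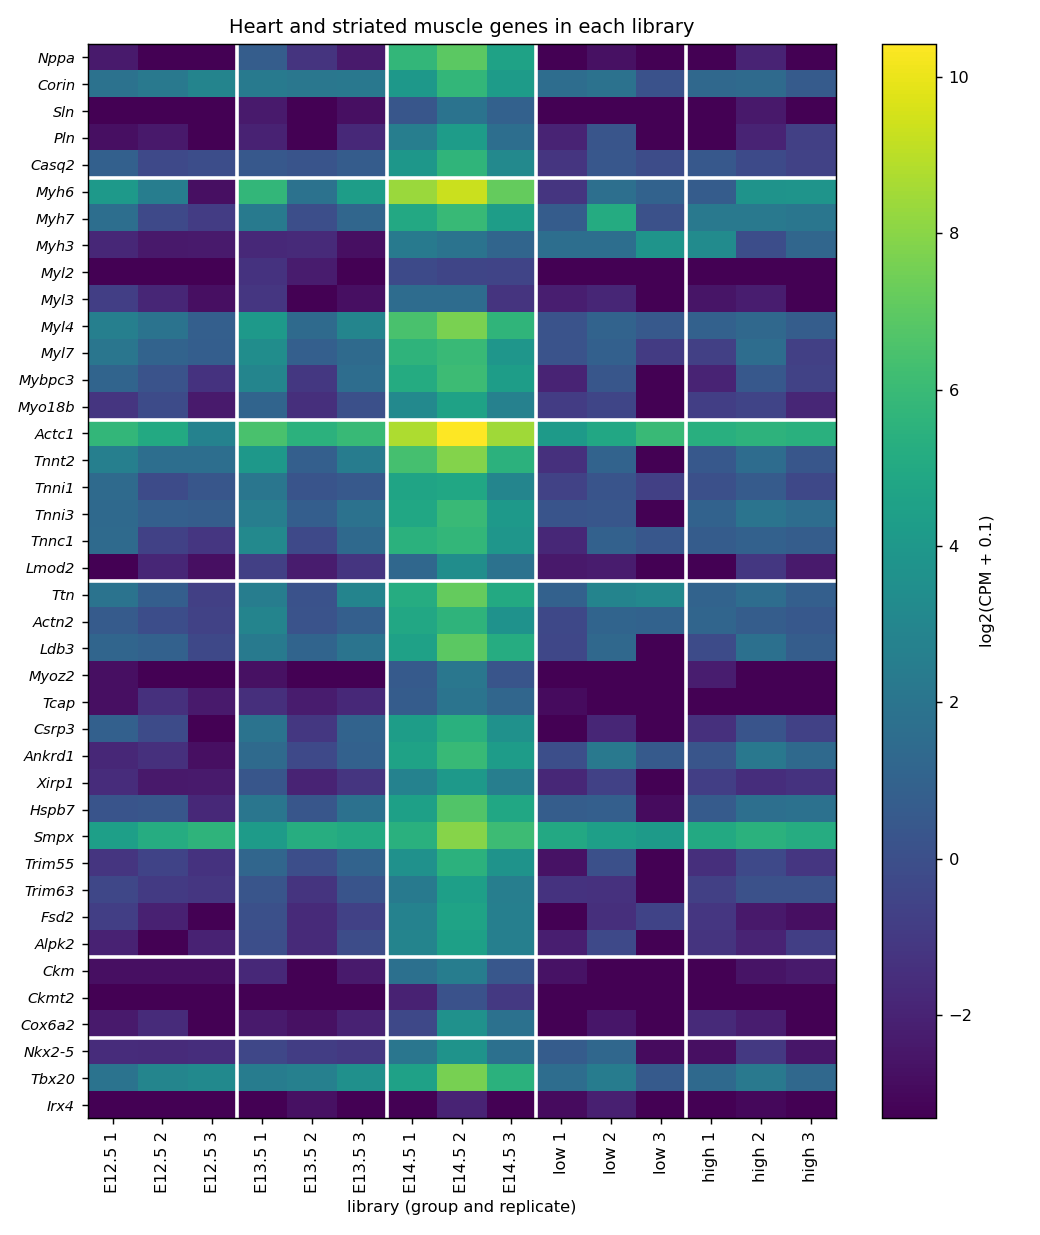
Level of each of the 40 genes (rows, grouped by role) in each of the 15 libraries (columns), as log2(CPM + 0.1). The 3 E14.5 columns are the brightest, replicate 2 most of all, and the cultured columns resemble E12.5 more than E14.5.

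Gene by gene, 37 of the 40 were higher in all 3 E14.5 libraries than in all 3 E12.5 libraries, and among all genes with a count the same held for 8.18%. The exceptions were the myosin light chain gene Myl3, the small muscle protein gene Smpx and the ventricular transcription factor gene Irx4. None was lower in all 3, a direction for which the share of all genes is not given here. Over the 32 genes with more than 3 counts in each group, the ratio of mean CPM at E14.5 to that at E12.5 had a median of 29.8 and ran from 3.31 (Smpx) to 203 (Ankrd1).

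The larger part of this difference fell between E13.5 and E14.5. All 3 libraries of E14.5 exceeded all 3 of E13.5 for 38 of 40 genes (7.36% of all genes), all but Myl3 and Irx4, with a median ratio of 14 over 36 genes and a range from 4.01 (Smpx) to 106 (Nppa). All 3 libraries of E13.5 exceeded all 3 of E12.5 for 6 of 40 genes, Nppa, Ankrd1, Hspb7, Trim55, Alpk2 and Nkx2-5 (2.04% of all genes). There the median ratio was 2.20 over 32 genes, from 0.571 (Myl3) to 9.92 (Ankrd1), and 28 of the 32 ratios exceeded 1. Both steps share libraries with the contrast behind the choice of genes.

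No gene of the 14242 tested passed an adjusted p of 0.05 between any 2 stages in edgeR's quasi-likelihood test with Benjamini-Hochberg adjustment (0% called). At an unadjusted p under 0.05 there were 123 genes for E13.5 against E12.5, 977 for E14.5 against E13.5 and 1328 for E14.5 against E12.5. DESeq2 called 0, 265 and 454 genes for these contrasts. With the replicate number as a block, edgeR called 1 gene (0.00702%), 856 genes (6.01%) and 1561 genes (11%). How many of these were muscle genes is not given, since the set was chosen on these libraries. The difference between both daily steps was called for 0 genes (233 at an unadjusted p under 0.05, 4 by DESeq2, 3 with the block).

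Nppa, which encodes the atrial natriuretic peptide (chromosome 4, 148000722 to 148002079, plus strand, GRCm38), stood at 0.096, 0 and 0 CPM at E12.5, 1.53, 0.313 and 0.098 a day later and 55.6, 125 and 24.6 at E14.5. In culture it was at 0, 0.052 and 0 CPM at low pressure and 0, 0.159 and 0 CPM at high. It thus had 3947 counts at E14.5 against 2 at E12.5, 2 at low and 7 at high pressure. The ratio to E12.5 was 2155, with a 95% interval from 596 to 17804 that covers counting error only. Corin, the protease that activates this peptide, and Casq2, which buffers calcium in the cardiac sarcoplasmic reticulum, were detected at every stage. Corin stood at 3.47, 4.56 and 7.27 CPM at E12.5, then at 4.80, 4.22 and 4.45 at E13.5 and finally at 16.3, 55.3 and 18.2 at E14.5. Casq2 stood at 1.73, 0.722 and 0.852 CPM at E12.5, 1.28, 1.09 and 1.51 a day later and 15.7, 50.1 and 8.80 at E14.5. For both genes E13.5 lay within the E12.5 range and E14.5 above it. Pln and Sln, inhibitors of the calcium pump, had 3 and 0 counts at E12.5 and 536 and 127 at E14.5. Sln was at least 46.2-fold higher at E14.5 than the floor of 3 counts over the E12.5 group, and Pln was 195-fold higher (interval 66.4 to 949).

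Promoters were read from RefSeq (GRCm38.p6), as the 250 bases before the start, for 33 of the 40 genes. The 3 below are shown because they come from an atrial peptide, an atrial myosin light chain and a thick filament protein of the set, and because the annotated gene begins where each sequence ends. Capitals mark motif matches on either strand: the CArG box bound by serum response factor, the MEF2 site, GATA (GATAA), the NKX2-5 element (TNAAGTG), the T-box element (AGGTGTG), the MCAT element (CATTCC), the muscle E-box (CAGCTG) and the TATA box (TATAAA). The spans are chr4:148000472-148000721 on the plus strand for Nppa, chr11:5898783-5899032 on the minus strand for Myl7 and chr2:91117894-91118143 on the plus strand for Mybpc3.
Nppa: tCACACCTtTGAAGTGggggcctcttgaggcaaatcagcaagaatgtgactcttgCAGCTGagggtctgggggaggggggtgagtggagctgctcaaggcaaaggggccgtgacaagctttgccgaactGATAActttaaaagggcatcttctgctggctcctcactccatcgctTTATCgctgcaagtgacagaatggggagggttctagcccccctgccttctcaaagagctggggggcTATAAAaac
Myl7: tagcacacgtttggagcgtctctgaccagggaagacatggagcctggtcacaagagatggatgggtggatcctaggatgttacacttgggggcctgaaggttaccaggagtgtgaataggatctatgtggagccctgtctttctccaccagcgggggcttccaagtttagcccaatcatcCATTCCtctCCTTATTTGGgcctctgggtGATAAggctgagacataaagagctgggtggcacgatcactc
Mybpc3: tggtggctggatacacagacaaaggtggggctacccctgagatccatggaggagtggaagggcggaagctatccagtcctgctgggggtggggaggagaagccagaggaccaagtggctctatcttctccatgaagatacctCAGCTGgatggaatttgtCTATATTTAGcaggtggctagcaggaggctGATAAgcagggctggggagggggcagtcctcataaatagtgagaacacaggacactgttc

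In Nppa the matches were a T-box element on the opposite strand at 249 to 243 bases before the start, an NKX2-5 element at 241 to 235, an E-box at 195 to 190, GATA at 121 to 117 and 75 to 71, and a TATA box at 9 to 4. Myl7 held an MCAT element at 70 to 65, a CArG box at 61 to 52 and GATA at 41 to 37. Mybpc3 held an E-box at 108 to 103, a MEF2 site at 90 to 81 and GATA at 60 to 56. The CArG box occurred in 4 of the 33 promoters, those of Myl3, Myl7, Actc1 and Ldb3 (12.1%, against 1.47% of all 32807 promoters). The MEF2 site occurred in 4, those of Casq2, Mybpc3, Ttn and Myoz2 (12.1% against 2.92%). The E-box was in 9 (27.3% against 13%), MCAT in 8 (24.2% against 12.6%), GATA in 9 (27.3% against 22.6%) and the TATA box in 5 (15.2% against 12.4%). The NKX2-5 element was in 4 (12.1% against 10.1%) and the T-box element in 3 (9.09% against 5.11%). The 33 were a single promoter per gene, the one nearest the annotated gene start. The 32807 were all distinct RefSeq starts, with no such choice, so the shares come from unlike sets. Some of the 33, such as those of Myl2 and Tnni1, did not end at the annotated gene start. A match is a stretch of letters and not a measured binding site.

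Among the myosins, the atrial forms led at E14.5. Myh6, the alpha myosin heavy chain (chromosome 14, 54941921 to 54966927, minus strand), stood at 17.0, 5.597 and 0.050 CPM at E12.5, then at 55.1, 3.55 and 20.03 at E13.5 and finally at 329, 640 and 146 at E14.5. In culture it was at 0.342, 3.10 and 1.92 CPM at low pressure and 1.51, 13.1 and 13.97 CPM at high. The E12.5 libraries spanned a wide range, and all E14.5 libraries lay above all others. Myl7, the atrial regulatory light chain, stood at 4.14, 1.94 and 1.65 CPM at E12.5, 10.7, 1.72 and 2.64 a day later and 48.4, 63.6 and 14.6 at E14.5. Myl4, the atrial essential light chain, stood at 6.07, 3.70 and 1.70 CPM at E12.5, then at 16.3, 2.55 and 7.53 at E13.5 and finally at 90.6, 199 and 51.1 at E14.5. For both light chains the E13.5 range enclosed much of the E12.5 range, with replicate 1 the highest at each of these stages. In culture Myl7 was at 0.415 to 2.89 CPM and Myl4 at 1.06 to 2.39 CPM in all 6 libraries. Mybpc3, which encodes a protein that braces the thick filament, and Myo18b, an unconventional myosin needed for sarcomere assembly, had ratios of E14.5 to E12.5 of 35.9 and 32.5. Myl2, the ventricular regulatory light chain, had no count at E12.5 or in any cultured library and was at 0.751, 0.630 and 0.594 CPM at E14.5, 38 counts in all.

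Reads of related genes were set against each other as shares per kilobase of exon, with exact binomial 95% intervals that cover counting error only. The length of a gene was the union of all its annotated exons. A length beyond that of the RNA expressed would lower the share of that gene. Myh6 and Myh7 are close copies that lie next to each other, and these shares are uncertain since the counting of reads that match both is not given in the sources used here. Myh6 held 93.1%, 93.0% and 90.4% of the pair at E14.5 and 93.4%, 83.7% and 92.1% at E13.5. At E12.5 it held 87.9% and 90.8% in replicates 1 and 2 and 12.46% in replicate 3, where only 10 reads fell on the pair (interval 0.324% to 50.7%). In culture the balance varied between pools. At low pressure Myh6 held 22.3%, 10.3% and 71.9% and at high pressure 29.4%, 78.2% and 81.6%, so both groups overlapped. The 10.3% of low pressure replicate 2 (interval 8.62% to 12.2%) rested on 1448 reads, most of them from Myh7, the beta heavy chain.

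**Figure D2:**
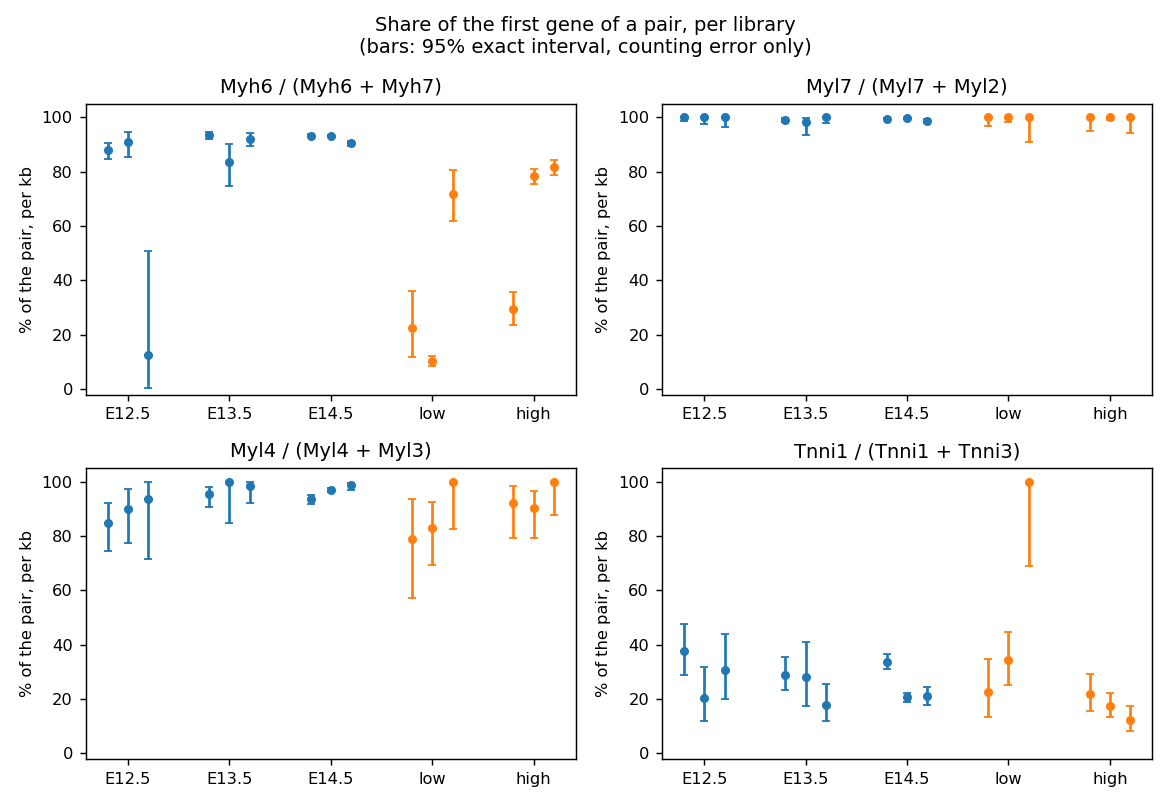
Share of the first gene in 4 pairs of related genes, in percent of the pair's reads per kilobase of exon, for each library (bars, 95% exact binomial intervals). Myh6 holds 83.7% or more in all fresh libraries except E12.5 replicate 3 and from 10.3% to 81.6% in cultured ones, and Myl7 holds 98.2% or more everywhere.

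Light chain reads came mostly from the atrial forms. Myl7 held 98.2% to 100% of the pair formed with the ventricular Myl2 in all 15 libraries, and 100% in the 6 cultured ones on 13 to 127 reads each. Myl4 held 78.9% to 100% of the pair formed with Myl3. For the inhibitory troponins, Tnni1, the slow skeletal and fetal form, held 33.7%, 20.6% and 21.1% of the pair formed with the cardiac Tnni3 at E14.5. That share was 22.8%, 34.3% and 100% at low pressure, the last on 16 reads, and 21.8%, 17.5% and 12.2% at high pressure.

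Per kilobase of exon, Actc1, which encodes cardiac alpha actin (chromosome 2, 114047282 to 114053548, minus strand), was the most abundant of the 40 genes at E14.5 at a mean of 445 CPM per kilobase. Nppa followed at 79.0, Myl7 at 71.5, Myh6 at 55.2, Smpx at 52.3 and the calcium-binding troponin gene Tnnc1 at 36.6 CPM per kilobase. The SD over the 3 libraries was 350 for Actc1, 59.4 for Nppa and 42.5 for Myl7. It was 37.1 for Myh6, 48.5 for Smpx and 20.2 for Tnnc1. The means of neighbours after Actc1 lay within these SDs of each other. The SDs measure the spread between libraries, and the order of genes within a library was not tested. Irx4 was last at 0.0201 CPM per kilobase.

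In CPM, Actc1 stood at 54.4, 32.0 and 6.77 at E12.5, 88.7, 45.1 and 61.2 a day later and 430, 1373 and 357 at E14.5. Its cultured levels were 17.6, 29.7 and 63.7 CPM at low pressure and 41.3, 46.9 and 42.8 CPM at high. The cultured levels overlapped those of E12.5 and E13.5, and only E14.5 stood clear. Tnnc1 stood at 2.60, 0.542 and 0.351 CPM at E12.5, then at 8.63, 0.730 and 2.54 at E13.5 and finally at 44.5, 55.1 and 14.6 at E14.5. Tnni3, the cardiac inhibitory troponin, stood at 2.46, 1.72 and 1.55 CPM at E12.5, 5.82, 1.62 and 3.47 a day later and 29.4, 64.8 and 16.5 at E14.5. For both troponins E13.5 overlapped E12.5, and E14.5 stood clear. Tnnt2, which ties the troponin complex to tropomyosin, had a ratio of E14.5 to E12.5 of 30.0, Tnni1 one of 13.8 and the filament-length regulator Lmod2 one of 71.6.

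**Figure D3:**
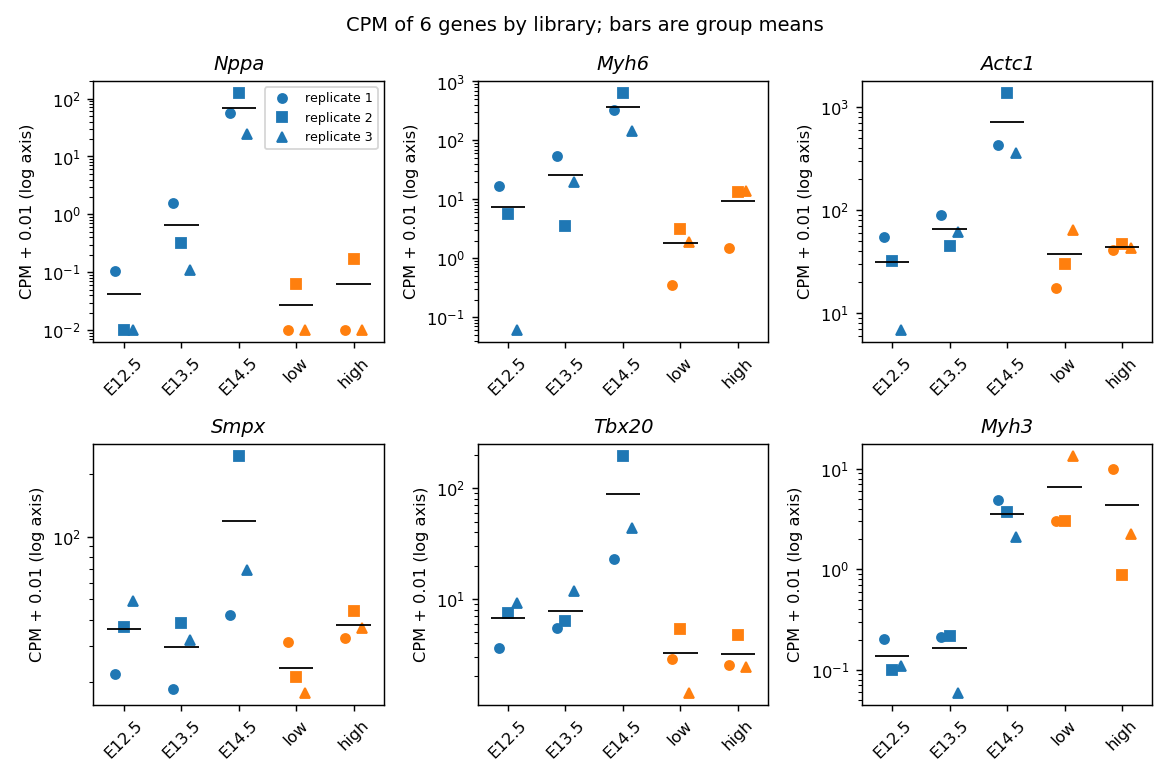
CPM + 0.01 on a log axis for 6 of the genes in each library, by group; symbols mark the replicate and bars the group mean. Nppa is at 1.53 CPM or less before E14.5, at 24.6 or more at E14.5 and at 0.159 or less in culture, while the Myh3 levels in culture overlap those of E14.5.

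Of the 14 genes of the Z-disc, titin and its associates, Smpx was already abundant at E12.5. Smpx, a small protein of striated muscle (chromosome X, 157698910 to 157752591, plus strand), was at 21.9, 36.9 and 49.1 CPM at E12.5 and at 18.6, 38.4 and 32.1 at E13.5. At E14.5 it was at 42.1, 245 and 69.5 CPM, so its lowest E14.5 library lay within the E12.5 range. At E12.5 it had 15.8 CPM per kilobase, second only to Actc1 at 19.2. The small heat shock protein gene Hspb7 stood at 1.11, 1.17 and 0.200 CPM at E12.5, then at 4.04, 1.20 and 3.37 at E13.5 and finally at 22.0, 102 and 28.8 at E14.5. The stretch-responsive gene Ankrd1, a titin-binding ankyrin protein, stood at 0.193, 0.271 and 0.050 CPM at E12.5, 2.55, 0.730 and 1.81 a day later and 24.1, 60.9 and 19.3 at E14.5. Hspb7 and Ankrd1 were separated between E12.5 and E13.5 and between E13.5 and E14.5.

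The other 11 of these genes had ratios of E14.5 to E12.5 from 17.9 for the titin cap gene Tcap to 121 for the kinase gene Alpk2, apart from Myoz2, which had 1 count at E12.5 (ratio 142, interval 25.0 to 5650). Titin itself, Ttn, had a ratio of 37.3, the Z-disc actinin Actn2 one of 32.1 and the Z-disc adaptor Ldb3 one of 39.95. The LIM protein Csrp3 had a ratio of 29.6, and the ubiquitin ligases Trim55 and Trim63 ratios of 58.6 and 22.5. Xirp1, an actin-binding protein, and Fsd2 had ratios of 67.4 and 60.8.

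The 3 genes of energy metabolism were near 0 before E14.5. Cox6a2, the muscle form of a cytochrome oxidase subunit, stood at 0.096, 0.226 and 0 CPM at E12.5, then at 0.102, 0.052 and 0.147 at E13.5 and finally at 0.701, 12.3 and 3.35 at E14.5. Ckm, the cytosolic muscle creatine kinase, stood at 0.048, 0.045 and 0.050 CPM at E12.5, 0.204, 0 and 0.098 a day later and 3.30, 5.61 and 1.24 at E14.5. Ckmt2, its mitochondrial counterpart, was at 0 in all E12.5, E13.5 and cultured libraries and at 0.150, 0.997 and 0.378 CPM at E14.5. Its 29 counts at E14.5 put it at least 10.6-fold above the floor of 3 counts over the E12.5 group.

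Of the 3 transcription factor genes, Tbx20, a T-box factor of heart development (chromosome 9, 24718138 to 24774303, minus strand), was well detected at every stage. It stood at 3.61, 7.49 and 9.27 CPM at E12.5, then at 5.42, 6.26 and 11.9 at E13.5 and finally at 22.8, 197 and 44.0 at E14.5. Nkx2-5, a homeobox factor of cardiac muscle (chromosome 17, 26838664 to 26845009, minus strand), stood at 0.241, 0.226 and 0.251 CPM at E12.5, 0.664, 0.469 and 0.391 a day later and 4.05, 13.0 and 3.24 at E14.5. Nkx2-5 was separated between all stages, and Tbx20 only between E14.5 and the earlier ones. Irx4 had 0, 1 and 3 counts at the successive stages. Of the genes in the set used more by ventricles, Irx4 had 3 counts at E14.5, Myl2 38 and Myl3 115, while Myh7, also a gene of slow skeletal muscle, stood at 31.1, 62.0 and 19.9 CPM. Beyond the set, the atrial growth factor gene Bmp10 was at 2.50, 8.97 and 1.46 CPM at E14.5 and at 0.10 or less in every other library. The natriuretic peptide gene Nppb was at 1.85, 3.04 and 0.432 CPM at E14.5 and at 0.104 or less elsewhere.

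Replicate 2 gave the highest of the 3 E14.5 values for 37 of the 40 genes, and replicate 3 the lowest for 27. Over the 37 genes with at least 100 counts at E14.5, the level in replicate 1 relative to replicate 2 had a median of 0.352 and ran from 0.0568 (Cox6a2) to 1.30 (Myh3). Replicate 2 exceeded replicate 3 in all 37, by 1.71-fold (Tcap) to 8.58-fold (Myl3), with a median of 3.78. The ratio between pools was thus far from the same for all genes. At E13.5 replicate 1 was the highest for 31 of 39 genes with a count and replicate 2 the lowest for 32. At E12.5 replicate 1 was the highest for 22 of 36 and replicate 3 the lowest for 21. The pools of a stage therefore differed for most of the set in 1 direction at E13.5 and E14.5.

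**Figure D4:**
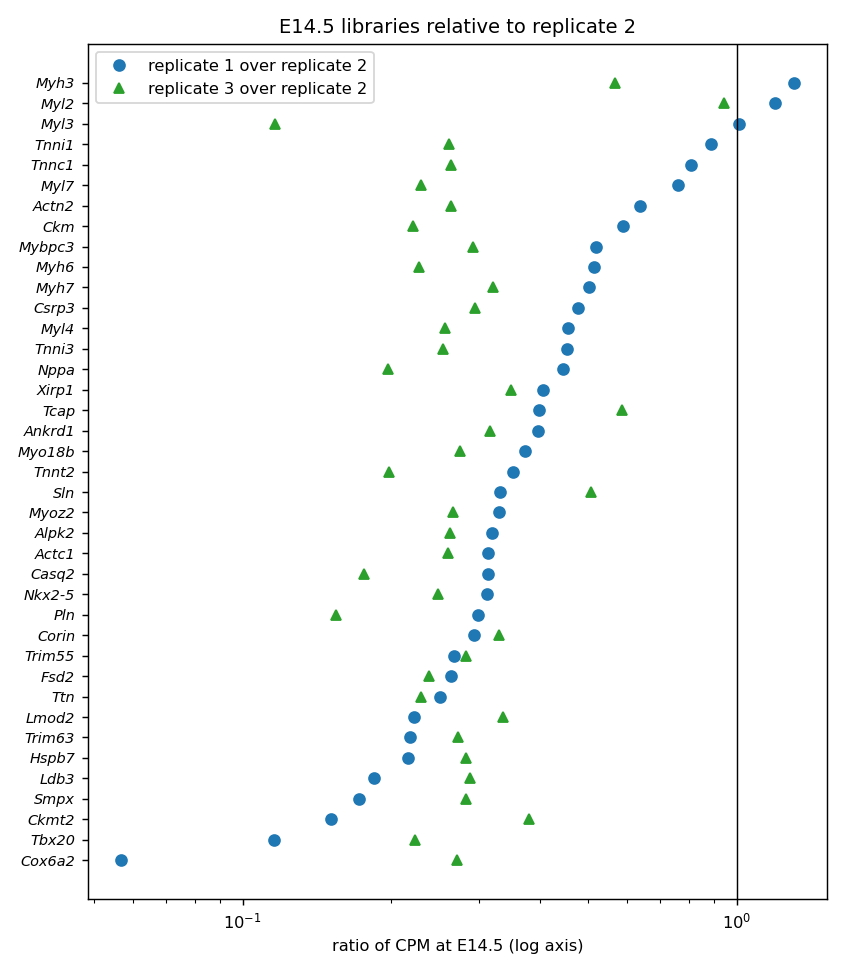
Level of each gene in E14.5 replicates 1 (circles) and 3 (triangles) as a ratio to replicate 2, on a log axis, for the 39 genes with a count in all 3 libraries. Nearly all points lie left of 1, triangles lie in a narrower band than circles, and circles run from 0.0568 for Cox6a2 to 1.30 for Myh3.

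In replicate 1, genes that stood high or low relative to replicates 2 and 3 at 1 stage tended to do so at the others. Over 33 of the genes the replicate 1 deviation at E14.5 had a Spearman rho of 0.478 with that at E12.5 and of 0.657 with that at E13.5. It had a rho of 0.436 with the gene's GC content and of -0.0331 with its exon length. These are descriptions across genes, which are not independent replicates and share libraries.

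Culture from E12.5 did not bring the set to E14.5 levels. All 3 low pressure libraries lay below all 3 E14.5 libraries for 37 of the 40 genes (20% of all genes), the exceptions being Myh7, Myh3 and Irx4. All 3 high pressure libraries did so for 37 (24% of all genes), the exceptions being Myh3, Smpx and Irx4. The E14.5 mean was a median of 37.0 times the low pressure mean over 31 genes and 32.4 times the high pressure mean over 36. Fresh and cultured libraries stand in separate tables that were scaled separately, so these levels were set side by side and not tested. The 40 were also listed with their higher E14.5 counts known. Cultured levels below those of the same E14.5 libraries were therefore in part built in by the choice of genes.

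Relative to E12.5, the low pressure mean had a median ratio of 0.759 over 30 genes, with 11 ratios above 1, and a range from 0.0728 (Csrp3) to 51.1 (Myh3). All 6 cultured libraries lay above all 3 E12.5 libraries for Myh3 and Ankrd1 (15.1% of all genes) and below them for Tnnt2 and Tcap (14.7%). Myh3, the embryonic heavy chain of skeletal muscle (chromosome 11, 67078300 to 67102291, plus strand), was at 0.193, 0.090 and 0.1002 CPM at E12.5 and at 4.85, 3.73 and 2.11 at E14.5. In culture it was at 3.01, 3.04 and 13.51 CPM at low pressure and 9.95, 0.864 and 2.24 CPM at high. Cultured and E14.5 levels of Myh3 overlapped, and all lay above E12.5. Ankrd1 was at 0.870, 4.61 and 1.41 CPM at low pressure and 1.12, 4.41 and 2.46 CPM at high, between its E12.5 and E14.5 levels.

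High pressure was compared with low pressure to ask which genes respond to the pressure held in the airways, and the set was chosen mainly on the stages. Of the 40 genes, 28 passed the filter on low counts. Of these, 1 rose, Smpx, and 0 fell in edgeR's quasi-likelihood test at a Benjamini-Hochberg adjusted p under 0.05. Among all 14937 genes tested 26.1% were called, 14% higher and 12.2% lower. At an unadjusted p under 0.05 there were 4 of the 28, Ttn lower and Smpx, Myh6 and Csrp3 higher, against 5913 of all 14937 genes. DESeq2 called 1 of 37 muscle genes higher and 2 lower, against 2405 and 2326 of all 18158 genes it tested. The median log2 fold change of the 28 genes was 0.33, against 0.01 for all genes tested. Single libraries moved it: it was 0.08 without low pressure replicate 1, 1.07 without low pressure replicate 2, 0.18 without high pressure replicate 2 and 0.57 without high pressure replicate 3, and 0.62 with the replicate block. All 3 high pressure libraries exceeded all 3 low pressure ones for Tnni3, Csrp3, Smpx and Trim63, 4 of 40 (21.6% of all genes), and lay below them for 0 (18.2%).

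**Figure D5:**
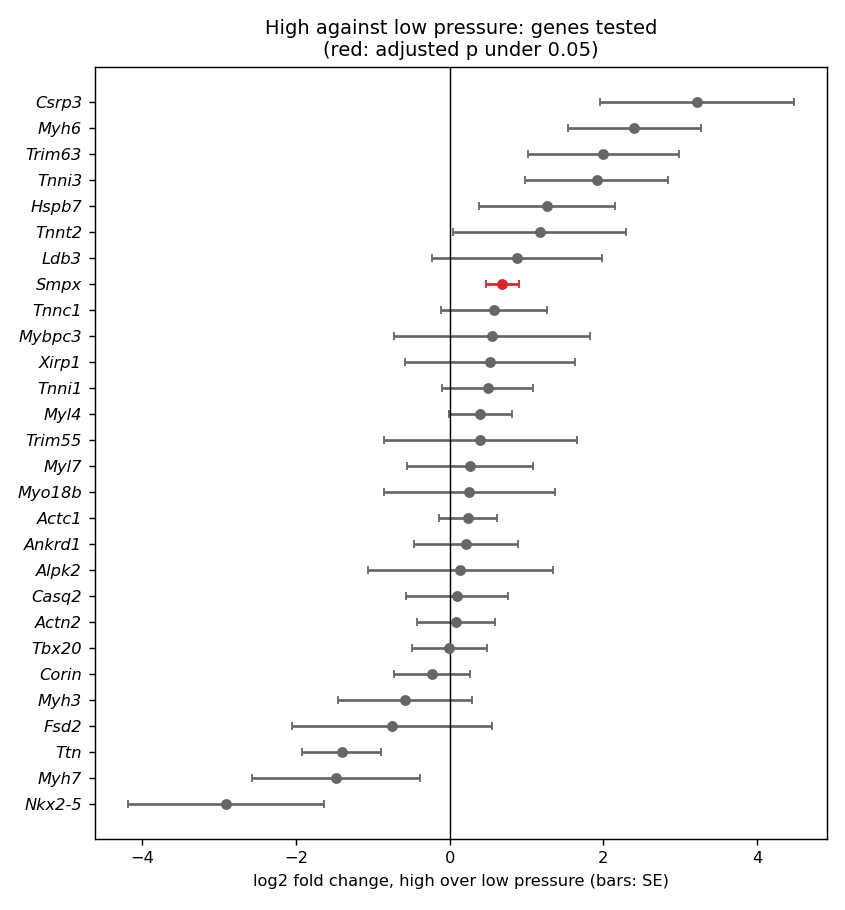
Log2 fold change of high over low pressure with its SE for the 28 genes that passed the filter on low counts. Smpx, at 0.68, is the gene with an adjusted p under 0.05 and has the narrowest bar, and the values run from -2.91 for Nkx2-5 to 3.22 for Csrp3.

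Smpx was at 31.3, 21.2 and 17.8 CPM at low pressure and 32.6, 43.9 and 36.4 CPM at high. Its log2 fold change was 0.68 (SE 0.21, edgeR adjusted p = 0.0457), and the lowest high pressure library lay just above the highest low pressure one. The call was lost without low pressure replicate 2 (adjusted p = 0.123) and without high pressure replicates 1 (0.0731), 2 (0.172) or 3 (0.120). Myh6 had a change of 2.40 on the log2 scale (SE 0.86, edgeR adjusted p = 0.0728) and was called with the replicate block (2.38, adjusted p = 0.00276; 11.5% of all genes were then called higher) and without high pressure replicate 1. Csrp3, with 7 counts at low pressure, all in replicate 2, and 81 at high pressure, had one of 3.22 (SE 1.26, adjusted p = 0.0936). Tnni3 had one of 1.91 (SE 0.93, adjusted p = 0.161) and Trim63 one of 2.0 (SE 0.99, adjusted p = 0.169). Both had no count in low pressure replicate 3.

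The genes with lower values at high pressure were named after their values were seen. Ttn was at 1.83, 7.26 and 8.46 CPM at low pressure and 2.0, 2.93 and 1.68 CPM at high, a log2 fold change of -1.41 (SE 0.52, edgeR adjusted p = 0.0783, DESeq2 adjusted p = 0.0211), which was -0.57 with offsets for GC content and length (adjusted p = 0.438). Nkx2-5 was at 1.52, 2.34 and 0.032 CPM at low pressure and 0.047, 0.387 and 0.075 CPM at high, a log2 fold change of -2.91 (SE 1.28, edgeR adjusted p = 0.127, DESeq2 adjusted p = 0.0443). Low pressure replicates 1 and 2 lay above all high pressure libraries for Nkx2-5, and replicate 3 below them; without replicate 3 the edgeR adjusted p was 0.00355. Myh7 was at 1.52, 34.6 and 0.958 CPM at low pressure and 4.65, 4.68 and 4.04 CPM at high. Its log2 fold change was -1.48 (SE 1.09, adjusted p = 0.353), and without low pressure replicate 2, the high library, it was 1.84 (adjusted p = 0.0159).

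Actc1 had a log2 fold change of 0.24 (SE 0.38, edgeR adjusted p = 0.682), which was 0.88 without low pressure replicate 3 (adjusted p = 0.00956), -0.09 without replicate 1 and -0.26 with offsets for GC content and length. Without low pressure replicate 3, Actc1, Smpx and Tnni3 were called higher and Nkx2-5 lower, of 29 muscle genes tested. In that fit 3374 of all 15240 genes were called higher and 2883 lower. Without low pressure replicate 2, Csrp3 and Myh7 were called higher, of 28 tested, but Csrp3 then had no count left at low pressure. In that fit 1431 of all 15219 genes were called higher. Tbx20, at 2.89, 5.33 and 1.41 CPM at low pressure and 2.51, 4.68 and 2.41 CPM at high, had a log2 fold change of -0.01 (SE 0.49). The 12 of the 40 genes that did not pass the filter included Nppa, Pln, Sln, Myl2, Myl3 and all 3 energy genes.

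Other genes of the heart and of striated muscle were taken from lists that leave out the 40. Of 25 regulators and markers of the heart and venous pole, 20 were tested between pressures, of which 3 rose and 6 fell (14% and 12.2% of all genes), with a median log2 fold change of -0.31. The homeobox gene Isl1 had means of 25.5 ± 2.95 CPM at low pressure and 9.10 ± 0.576 CPM at high (SD, n = 3) and fell by 1.49 on the log2 scale (SE 0.14, edgeR adjusted p = 0.000608). Mef2c (-0.85) and Tbx18 (-1.47), transcription factors of muscle and of the sinus venosus, fell as well, and the lipid transfer protein gene Stard10 rose (1.95). With offsets for GC content and length the Mef2c change was -0.50 (adjusted p = 0.00873). Between E12.5 and E14.5, 12 of the 25 had no overlap between their libraries in the higher direction (8.18% of all genes). Isl1 had none in the lower direction, for which the share of all genes is not given here. The summed level of the 25 was 764 to 1004 CPM at E12.5 and 835 to 1172 CPM at E14.5. These ranges overlapped, unlike those of the 40 genes.

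Of 69 other striated muscle genes, 54 were tested between pressures, of which 6 rose and 4 fell (14% and 12.2% of all genes), with a median of 0.16. The actin-capping gene Tmod1 rose from 1.05 ± 0.369 to 6.74 ± 1.88 CPM (log2 fold change 2.68, SE 0.37, edgeR adjusted p = 0.00201). The tropomyosin genes Tpm1 (0.69) and Tpm2 (1.095) rose, and the calcium release channel gene Ryr2 fell (-0.96). With offsets for GC content and length the Ryr2 change was -0.57 and not called (adjusted p = 0.0513). At E14.5 all libraries exceeded those of E12.5 for 42 of the 69 (8.18% of all genes). All lay below for Tmod4, Myoz3 and Ryr1, a direction for which the share of all genes is not given here.

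A list of 20 skeletal muscle genes overlapped the list of 69, sharing Ryr1, Tnni2, Mybpc1 and Casq1 among others. Of the 20, 16 were tested between pressures. Of these 1 rose, the perinatal heavy chain gene Myh8 (3.21, SE 0.89, edgeR adjusted p = 0.0303), and 1 fell, the calcium release channel gene Ryr1 (-1.13), against 14% and 12.2% of all genes. The Myh8 call was lost without low pressure replicate 1 (adjusted p = 0.0621) and without high pressure replicates 1 (0.139), 2 (0.0760) or 3 (0.0805), and the Ryr1 call without high pressure replicate 2 (0.0530). Tnni2 (3.06, adjusted p = 0.0713) and Mybpc1 (-2.23, adjusted p = 0.0721) did not pass. The summed level of this list was 10.2 to 11.2 CPM at E12.5, 32.2 to 99.8 CPM at E14.5, 17.6 to 33.1 CPM at low pressure and 16.2 to 23.0 CPM at high. At E14.5 the calcium buffer gene Casq1 alone gave 16.5, 85.2 and 27.6 CPM of it. Casq1 was also among the genes outside the set of 40 most like its mean over the fresh libraries (r = 0.981). Myod1, the skeletal muscle determination factor gene, was at 0.25, 0.31 and 0.22 CPM at E14.5, 2.02, 1.20 and 4.66 CPM at low pressure and 1.02, 0 and 0.18 CPM at high. Its part in the cultured Myh3 levels was not tested.

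Markers of other cells were summed over their lists. The 8 liver genes gave at most 6.80 CPM in any library and 0.477 CPM or less in culture, and the 6 thymus and thyroid genes at most 3.61 CPM. The 13 endothelial genes gave 537 to 824 CPM at E12.5, 841 to 1149 at E14.5, 262 to 453 under low pressure and 133 to 291 under high. The 13 smooth muscle genes gave 481 to 998 CPM at E12.5, 923 to 1325 at E14.5, 803 to 1139 under low pressure and 1094 to 1234 under high. The 6 red cell genes measured gave 2702 to 3231 CPM at E12.5, 513 to 1381 at E14.5 and 240 to 597 CPM in culture. The part of these lists in the muscle gene levels was not tested.

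The patterns of the 40 genes were alike over the 9 fresh libraries, least so for Irx4 and Smpx, whose log2 CPM correlated with the mean of the set at r = 0.532 and 0.709. The 8 genes outside the set most like that mean, among 13178 with a sufficient level, were Myom2 (r = 0.988), Unc45b (0.987), 2310050B05Rik (0.986), Gm889 (0.985), Mlip (0.983), Myom1 (0.982), Tmem163 (0.981) and Casq1 (0.981). Myom1 and Myom2 encode proteins of the M-band that holds thick filaments together, Unc45b a chaperone of myosin and Mlip a protein that binds lamin in muscle. Myom2 had a mean of 0.063 ± 0.074 CPM at E12.5, 0.135 ± 0.060 a day later and 5.85 ± 3.75 at E14.5 (n = 3, SD). The r values share the 9 libraries and are a description. For the 40 genes high values were in part built in. They were listed with their higher E14.5 counts known, and each gene contributes to the mean it was compared with.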

How the data were processed

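RNA-seq libraries of embryonic lung were compared in 2 deposited tables of raw counts, 9 fresh and 6 cultured libraries, which the authors made with cutadapt 1.6, Bowtie 1.1.1, TopHat, HTSeq and DESeq2 on mm10, per the submitters' processing notes. How strand, annotation and reads with several matches were handled is not given in the sources used here. Antisense partners and close copies cannot be separated. The other deposited tables of normalized signal and log2 values were not used.

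Each table was fitted in edgeR 4.0.16 (R 4.3.3: TMM, filterByExpr, robust quasi-likelihood F-test, Benjamini-Hochberg adjustment over all genes tested, threshold 0.05), and DESeq2 1.42.0 was an alternative. The 3 stages shared a fit. The simulated test of high against low pressure recovered 97% of 2-fold and 100% of 4-fold changes (3.90% false calls). That of E14.5 against E12.5 recovered 94% and 100% (3% false). The simulated counts had the same spread for all genes and no shifts shared by same-numbered libraries. These rates therefore do not give the power of the tests on the real libraries. Ratios are of mean CPM, with a floor of 3 counts over a group. Exon lengths, the union of all annotated exons of a gene, and positions are from GENCODE M21, RefSeq promoters from GRCm38.p6. Values per kilobase and their order depend on these lengths. The 40 genes and the lists were chosen with earlier results of these data known. Genes of the set named in detail are those called between pressures and up to 3 per role with the highest E14.5 level per kilobase. Up to 4 genes per list follow the smallest p between pressures. Values of Myh3, Myh7, Myl2, Ttn, Bmp10, Nppb, Gja5, Popdc2, Shox2, Hey2, Casq1 and Myod1 were given outside both rules, with the data already seen. Same-numbered libraries were checked for shared deviations from group means. In the stages all 9 pairs correlated at 0.490 to 0.880 (18 other pairs, -0.794 to 0.704). Replicate 1 set against 2 or 3 of another stage gave -0.794 to -0.614. Replicate 2 against 3 of another stage gave 0.525 to 0.704, against 0.490 to 0.677 for same-numbered pairs of 2 or of 3. The numbers thus set replicate 1 apart and did not pair replicates 2 and 3. A replicate block and a term for replicate 1 are given there as alternatives, although no label explains the numbers. In culture the 3 same-numbered pairs correlated at -0.0213 to 0.0184.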

Additional observations from a re-analysis of the deposited data

How the results depend on the processing

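The number of genes called between pressures was 3905 and ranged from 1894 to 6257 when 1 library was left out: 2411, 1894 and 2016 without high pressure replicates 1, 2 and 3, and 6257 without low pressure replicate 3. Muscle genes called higher (1) numbered 0 to 3 and those called lower (0) 0 to 1 in these fits. Among all genes tested, 1069 to 3374 were called higher and 819 to 2883 lower in them. DESeq2 called 2 muscle genes lower, and 2326 of all 18158 genes. In the fit with the replicate block 2 muscle genes were called higher (11.5% of all genes), and the block reversed Myh7 to a log2 fold change of 0.29. In culture the numbers did not pair the libraries.

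For the stages, 0 genes were called without the block. With the replicate block or a term for replicate 1, the counts were 1 and 1 for E13.5 against E12.5, 856 and 808 for E14.5 against E13.5, 1561 and 1592 for E14.5 against E12.5, and 3 and 2 for the difference between both steps. DESeq2 called 265 for E14.5 against E13.5, 454 for E14.5 against E12.5 and 4 for the difference of steps. For E14.5 against E12.5, 9 genes were called with no filter on low counts and 0 to 3 with 1 library left out (3 without E14.5 replicate 2). The E14.5 summed level ranged from 1298 to 2875 CPM without 1 library, an alternative chosen after seeing the data. A group left with 2 libraries borrows its spread from the others.

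Of the muscle genes, 15 changed sign between pressures under at least 1 alternative. They included Tbx20 (-0.38 to 0.58) and Myh7 without low pressure replicate 2 (1.84), Actc1 with GC and length offsets (-0.26) and without low pressure replicate 1 (-0.094), as well as Myh3 without low pressure replicate 3 (0.52); with 1 library left out the last 3 genes ranged over -2.02 to 1.84, -0.09 to 0.88 and -2.07 to 0.52. The causes were not tested. The offsets left 2704 genes called, 1345 higher and 1359 lower, against 2089 and 1816. Depth limits the genes with few counts. Low pressure replicate 3 had a total count close to that of replicate 1 (31843739 and 31971829) and fewer genes detected (14637 and 16691).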

Other observations

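Gja5, which encodes an atrial and arterial gap junction protein, was at 32.0, 28.03 and 25.9 CPM at E12.5, 39.1, 97.1 and 45.2 CPM at E14.5 and 1.57 to 3.79 CPM in the 6 cultured libraries. Popdc2, a membrane protein gene of striated muscle, was at 1.16, 1.53 and 2.15 CPM at E12.5 and 11.3, 38.0 and 10.9 CPM at E14.5, and Shox2, a transcription factor gene of the sinus node and pulmonary vein, at 0.626, 0.858 and 0.802 CPM at E12.5 and 1.55, 5.46 and 3.13 CPM at E14.5. Replicate 2 was the highest of the E14.5 libraries for all 3 genes. Hey2, a transcriptional repressor gene of the Notch pathway, fell at high pressure from 1.04 ± 0.112 to 0.107 ± 0.130 CPM (SD, n = 3; log2 fold change -3.26, edgeR adjusted p = 0.0477). The Hey2 call was lost with the replicate block (adjusted p = 0.0627), with offsets for GC content and length (0.0690), with no filter on low counts (0.0574) and without low pressure replicates 1 (0.114) or 2 (0.104) or high pressure replicates 1 (0.166), 2 (0.109) or 3 (0.0539).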
